A study of Homo sapiens with 8 samples.

Results

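The genes described here set the pace of the G1 phase of the cell cycle: the D-type cyclins CCND1, CCND2 and CCND3, the E-type cyclin CCNE1, the cyclin-dependent kinases CDK4 and CDK6, the kinase inhibitors CDKN1A, CDKN2A and CDKN2B, and RB1, which encodes the retinoblastoma protein. They were taken by symbol from a gene-level RNA-seq table. All 10 symbols were found among 18902 analysed features, and all 10 were among the 13553 features that passed a minimum mean level over the libraries and were tested. CCND2 passed that minimum only through the libraries in which it was high, so it had to differ between groups.

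In G1, D-type cyclins bind CDK4 or CDK6, and the complexes phosphorylate the retinoblastoma protein. Phosphorylation releases E2F transcription factors, which switch on genes for DNA synthesis and CCNE1, and cyclin E with CDK2 then drives entry into S phase. The INK4 inhibitors p16INK4a, from CDKN2A, and p15INK4b, from CDKN2B, bind CDK4 and CDK6 and keep D-type cyclins from activating them, whereas p21, from CDKN1A, acts on several cyclin-kinase complexes. In hepatocellular carcinoma, silencing or loss of CDKN2A and gain of the CCND1 locus are known recurrent events.

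RNA came from the hepatocellular carcinoma lines MHCC-97H and MHCC-97L, named for high and low metastatic potential and grown in DMEM with fetal calf serum. The 4 groups, with 2 libraries each, were MHCC-97H Flag-OGT, MHCC-97H control, MHCC-97L Flag-OGT and MHCC-97L control. Flag-OGT is full-length human O-GlcNAc transferase, the enzyme that adds N-acetylglucosamine to nuclear and cytosolic proteins, with a C-terminal Flag tag, carried by a lentiviral luciferase vector with geneticin resistance. Control libraries bear no genotype label, and the sources used here say neither if they carried an empty vector nor if the Flag-OGT cells were clones or pools. The labels do not say that the 2 libraries of a group came from separate cultures, so the p-values reflect only how far these libraries spread, and that spread may be technical.

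The libraries summed to between 510449 and 613101 FPKM (fragments normalised to transcript length and library size), and their read depth is unknown. Across tested genes, Pearson's r of log2(FPKM + 1) was 0.997 to 0.999 between the libraries of a group, 0.957 to 0.963 between the lines in the same state, and 0.725 to 0.753 between Flag-OGT and control libraries of the same line. OGT was at 59.0 and 58.4 FPKM in MHCC-97H Flag-OGT libraries, against 32.5 and 34.2 FPKM in their controls. MHCC-97L had 51.0 and 54.5 FPKM with Flag-OGT, against 45.7 and 43.9 FPKM in controls, and that gain was no longer called after scaling every library to 1 common sum (adjusted p = 0.0986) or by median-of-ratios factors (adjusted p = 0.686). The Flag-OGT libraries stood apart from the liver origin on the labels: the summed level of 11 liver markers was 26.4 to 27.3 FPKM in MHCC-97H Flag-OGT libraries, against 5407 to 5648 FPKM in controls, and 19.8 to 32.2 FPKM in MHCC-97L Flag-OGT libraries, against 6383 to 6423 FPKM in controls. KRT8 and KRT18, keratins of simple epithelia in general, made up most of each sum, and the other 9 markers summed to 1.14 to 1.43 FPKM in MHCC-97H Flag-OGT against 50.03 to 52.1 FPKM in controls, and to 1.73 to 3.80 FPKM in MHCC-97L Flag-OGT against 156.2 to 158.2 FPKM in controls. KRT8 itself was at 5.62 to 12.03 FPKM in the 4 Flag-OGT libraries, against 3735 to 4140 FPKM in the 4 control libraries. Of these markers 2 reached 1 FPKM in both libraries of MHCC-97H Flag-OGT, against 8 in controls, and 2 in MHCC-97L Flag-OGT, against all 11 in controls. TTR was listed at 0 in all 4 Flag-OGT libraries, and HNF4A, a defining transcription factor of hepatocytes, was at 0.01 to 0.04 FPKM in them. Among markers of other cell types, 7 fibroblast genes summed to 20.6 to 20.9 FPKM in MHCC-97H Flag-OGT against 9.09 to 12.2 FPKM in its controls, and to 14.6 to 15.4 FPKM in MHCC-97L Flag-OGT against 4.54 to 5.33 FPKM in its controls. That list moved both ways: ACTA2 and COL1A1 were the higher ones with Flag-OGT, while LUM, nearly all of the control sum, was at 0 to 0.08 FPKM in Flag-OGT libraries against 4 to 11.5 FPKM in controls. Of 7 leukocyte markers the sums were 3.48 to 3.89 against 80.2 to 82.5 FPKM in MHCC-97H and 8.67 to 9.64 against 69.3 to 69.9 FPKM in MHCC-97L, in controls mostly CD68. In MHCC-97L Flag-OGT the largest part was LYZ, at 4.53 and 4.84 FPKM against 2.23 and 3.35 FPKM in controls. Of 6 endothelial markers they were 0.66 to 0.83 against 33.5 to 33.7 FPKM and 1.48 to 1.57 against 44.1 to 46.4 FPKM, in each case Flag-OGT against control. The part of these shifts in the results below was not tested. Whether the libraries labelled Flag-OGT came from the labelled lines, with no mix-up of samples or cells, was not tested either, so MHCC-97H Flag-OGT and MHCC-97L Flag-OGT name libraries by their labels throughout. In bulk RNA, fewer cells of a type and less RNA per cell cannot be told apart. In the comparison of the control libraries of the lines, the means use none of the Flag-OGT libraries. Its minimum level, its estimate of spread and so its p-values drew on all 8 libraries.

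With Flag-OGT, CCND1, CCND3, CDK6 and CDKN2B fell in both lines, and CCND2, CDKN2A and RB1 rose in both. In MHCC-97H all 10 genes were called (limma, adjusted p under 0.05), 3 higher and 7 lower, where 84.6% of all tested genes were called, 48.2% higher and 36.3% lower. Over all tested genes, the 6537 higher and 4923 lower calls there became 5695 and 5758 under median-of-ratios scaling and 5925 and 5603 after quantile normalization, while the 10 genes gave 3 higher and 7 lower, and 3 and 6. In MHCC-97L 9 of the 10 were called, 5 higher and 4 lower, where 84.8% of all tested genes were called, 50.1% higher and 34.7% lower. The 10 genes gave 3 higher and 4 lower there after common-sum rescaling, and 3 and 5 under median-of-ratios scaling, where 5787 of all tested genes were higher and 5625 lower. At a 2-fold minimum on the log2(FPKM + 1) scale, 6 of the 10 remained in each line, against 38.2% of tested genes in MHCC-97H and 34.7% in MHCC-97L. The libraries of Flag-OGT and control did not overlap for 10 of the 10 genes in MHCC-97H, against 91.5% of tested genes, and for 9 of the 10 in MHCC-97L, against 92.1%. CCND2, which had to differ, is included in the higher, 2-fold and non-overlapping counts of both lines. Over the whole table, 39.97% of tested genes were called higher in both lines and 27.4% lower in both. The median change of the 10 genes was -0.22 in MHCC-97H and 0.07 in MHCC-97L on the log2(FPKM + 1) scale, beside 0.15 and 0.19 over all tested genes. Median-of-ratios scaling moved the all-gene medians to 0.00 and 0.02, so changes smaller than about that shift depend on the scaling, and the median of the 10 genes became -0.42 in MHCC-97H and -0.13 in MHCC-97L. Fold changes on this scale understate the change of genes at low FPKM.

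**Figure D1:**
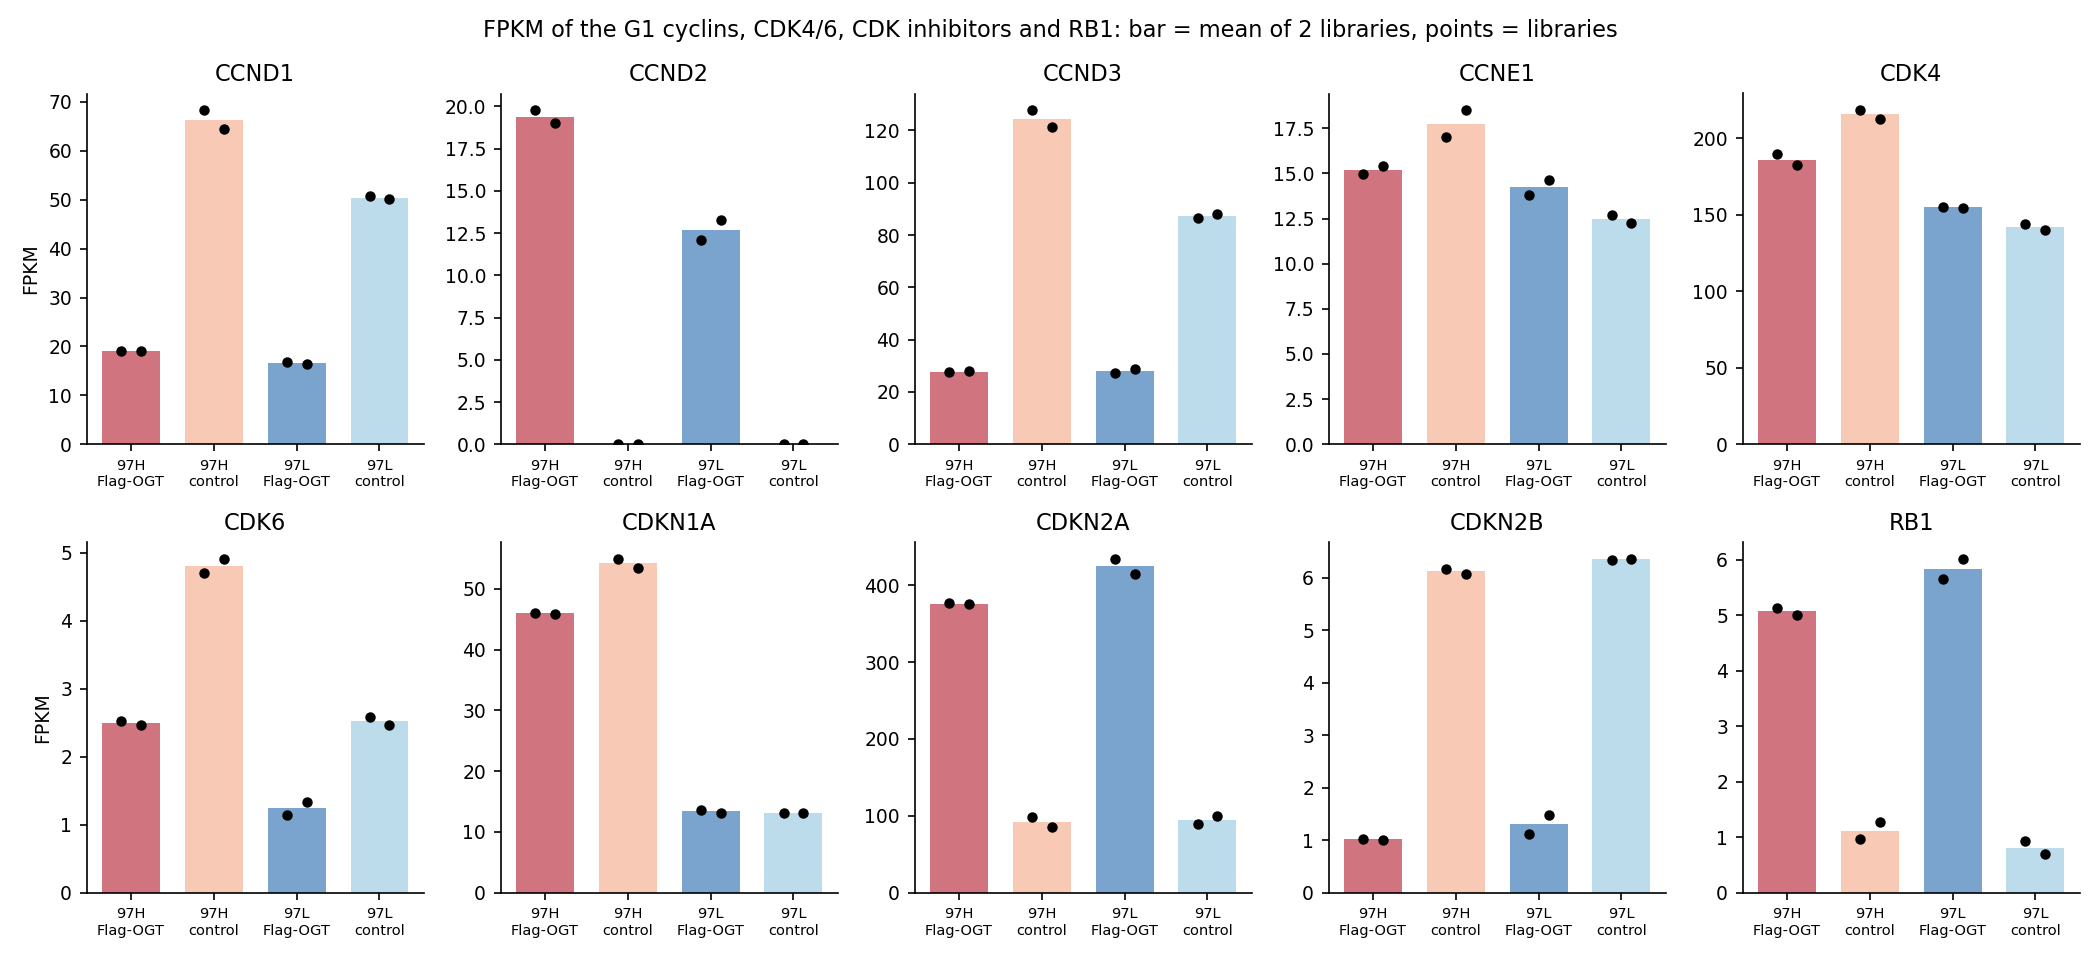
FPKM (linear axes from 0, 1 panel per gene) in the 4 groups; bars are means of 2 libraries and points are the libraries. CCND2, CDKN2A and RB1 stood higher in both Flag-OGT groups than in both control groups, CCND1, CCND3 and CDKN2B lower, and CDKN1A separated the lines in either state.

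Among the D-type cyclins, CCND1 and CCND3 fell in both lines while CCND2 appeared. CCND1 was at 19.2 and 19.1 FPKM in MHCC-97H Flag-OGT libraries, against 68.3 and 64.5 FPKM in controls. MHCC-97L held CCND1 at 16.9 and 16.3 FPKM with Flag-OGT, against 50.7 and 50.1 FPKM in controls. The groups did not overlap in either line, and the mean level was 3.48-fold higher in MHCC-97H controls and 3.03-fold higher in MHCC-97L controls than with Flag-OGT. The difference of log2(FPKM + 1) was -1.74 ± 0.05 in MHCC-97H (SE; limma, adjusted p = 5.1e-10) and -1.55 ± 0.05 in MHCC-97L (adjusted p = 1.5e-09).

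CCND3, the D-type cyclin with the highest level in every library, followed CCND1. It was at 27.6 and 27.9 FPKM in MHCC-97H Flag-OGT libraries, against 127.8 and 121.4 FPKM in controls. The MHCC-97L values were 27.1 and 28.8 FPKM with Flag-OGT, against 86.6 and 87.9 FPKM in controls. The Flag-OGT libraries of the lines overlapped with each other, and each was lower than any control library. The log2 difference was -2.13 ± 0.05 in MHCC-97H (limma, adjusted p = 1.2e-10) and -1.61 ± 0.05 in MHCC-97L (adjusted p = 1.1e-09).

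CCND2 was nearly absent from control libraries. It was at 19.8 and 19.0 FPKM in MHCC-97H Flag-OGT libraries, against 0 and 0.02 FPKM in controls, and at 12.1 and 13.3 FPKM in MHCC-97L Flag-OGT libraries, against 0.01 and 0.03 FPKM in controls. No fold against values this close to the smallest entry of the table, 0.01 FPKM, can be read. On the log2(FPKM + 1) scale the difference was 4.34 ± 0.07 in MHCC-97H (limma, adjusted p = 6.7e-12) and 3.74 ± 0.07 in MHCC-97L (adjusted p = 1.9e-11). CCND2 passed the minimum level only through its Flag-OGT libraries and had to differ, so these p-values lend no support. In its controls CCND2 stood at the 2.2 percentile of tested genes in MHCC-97H and the 1.9 percentile in MHCC-97L, and with Flag-OGT at the 70.3 and 61.8 percentiles.

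Together the D-type cyclins summed to 66.5 and 65.9 FPKM in MHCC-97H Flag-OGT libraries, against 196.1 and 185.8 FPKM in controls. In MHCC-97L the sums were 56.1 and 58.4 FPKM with Flag-OGT, against 137.3 and 138.0 FPKM in controls. The sums were lower in every Flag-OGT library than in any control library, with CCND2 included. Its share of the sum was 29.7% and 28.8% in MHCC-97H Flag-OGT and 21.5% and 22.7% in MHCC-97L Flag-OGT, and at most 0.0217% in any control library. CCND3 made up 41.9% ± 0.54 of the sum in MHCC-97H Flag-OGT against 65.2% ± 0.11 in controls, and 48.8% ± 0.71 in MHCC-97L Flag-OGT against 63.4% ± 0.44 in controls (SD, n = 2). CCND1 made up 28.8% ± 0.075 in MHCC-97H Flag-OGT against 34.8% ± 0.12 in controls, and 29.1% ± 1.6 in MHCC-97L Flag-OGT against 36.6% ± 0.45 in controls. For each of these sums and shares the groups did not overlap, and the two-sided exact permutation p was 0.33, the smallest that 2 libraries against 2 can give.

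**Figure D2:**
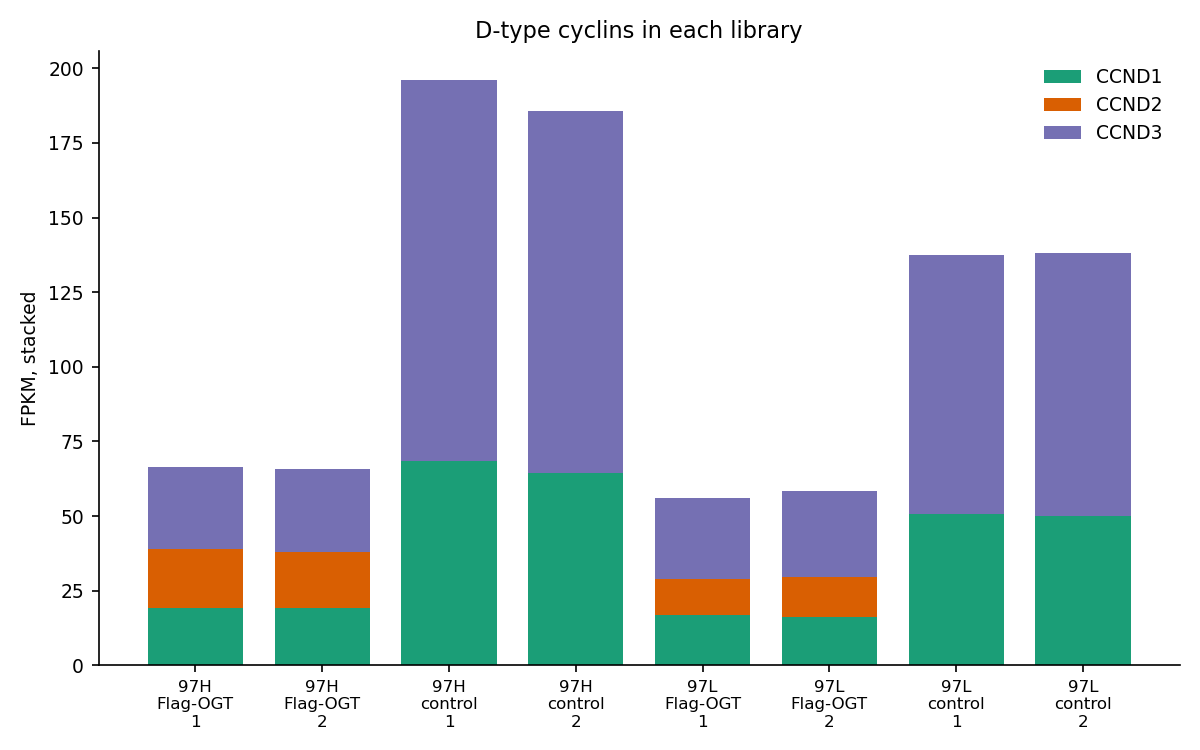
Stacked FPKM of CCND1, CCND2 and CCND3 (y axis) in each of the 8 libraries (x axis). The stacks reach 56.1 to 66.5 FPKM in the 4 Flag-OGT libraries, where CCND2 forms a visible band, and 137.3 to 196.1 FPKM in the 4 control libraries, where it does not.

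CCNE1, the cyclin that acts next with CDK2, changed little and in opposite directions. It was at 14.9 and 15.4 FPKM in MHCC-97H Flag-OGT libraries, against 17.0 and 18.5 FPKM in controls, a log2 difference of -0.21 ± 0.06 (limma, adjusted p = 0.0112). MHCC-97L libraries held CCNE1 at 13.8 and 14.6 FPKM with Flag-OGT, against 12.7 and 12.3 FPKM in controls, a log2 difference of 0.18 ± 0.06 (adjusted p = 0.0274). The groups did not overlap within a line, but the difference was of the size of the all-gene shift. In MHCC-97L it was not called after common-sum rescaling (0.06, adjusted p = 0.391), turned to -0.02 under median-of-ratios scaling (adjusted p = 0.751), and was not called without MHCC-97L control replicate 1 (adjusted p = 0.0556), without MHCC-97L control replicate 2 (0.132) or without MHCC-97L Flag-OGT replicate 2 (0.128). In MHCC-97H median-of-ratios scaling gave -0.41, and the call was lost without control replicate 2 (adjusted p = 0.065) or Flag-OGT replicate 1 (0.0755). Because the D-type cyclins were lower, the ratio of CCNE1 to their sum was 0.225 and 0.234 in MHCC-97H Flag-OGT, against 0.0867 and 0.0996 in controls, and 0.247 and 0.25 in MHCC-97L Flag-OGT, against 0.0926 and 0.0888 in controls.

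The kinases differed from each other in level by far more than either differed between Flag-OGT and control libraries. CDK4, the more abundant of the pair, was at 189.6 and 182.3 FPKM in MHCC-97H Flag-OGT libraries, against 218.3 and 212.9 FPKM in controls. The MHCC-97L values were 155.2 and 154.4 FPKM with Flag-OGT, against 144.2 and 140.3 FPKM in controls. The groups did not overlap within a line, and the direction again differed: -0.21 ± 0.05 in MHCC-97H (limma, adjusted p = 0.00171) and 0.12 ± 0.05 in MHCC-97L (adjusted p = 0.0337). The MHCC-97L value became 0.00 after common-sum rescaling (adjusted p = 0.966) and -0.09 under median-of-ratios scaling (adjusted p = 0.133). It was also not called without any 1 of its libraries, with adjusted p of 0.0671 and 0.169 without control replicate 1 and 2, and of 0.087 and 0.0733 without Flag-OGT replicate 1 and 2. In MHCC-97H the value was -0.42 under median-of-ratios scaling and -0.10 after quantile normalization (adjusted p = 0.0665).

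CDK6, the kinase that shares the D-type cyclins and INK4 inhibitors with CDK4, fell in both lines. It was at 2.52 and 2.46 FPKM in MHCC-97H Flag-OGT libraries, against 4.70 and 4.91 FPKM in controls, and at 1.15 and 1.34 FPKM in MHCC-97L Flag-OGT libraries, against 2.58 and 2.47 FPKM in controls. The groups did not overlap within a line, and the log2 difference was -0.73 ± 0.07 in MHCC-97H (limma, adjusted p = 4.2e-06) and -0.65 ± 0.07 in MHCC-97L (adjusted p = 1.1e-05). FPKM is scaled to transcript length, but the sources used here do not say which tool made it, so ratios between genes are approximate. CDK6 was 1.32% of CDK4 plus CDK6 in MHCC-97H Flag-OGT against 2.18% in controls. In MHCC-97L it was 0.798% with Flag-OGT against 1.74% in controls. The summed D-type cyclins were 0.352 ± 0.0076 of CDK4 plus CDK6 in MHCC-97H Flag-OGT against 0.866 ± 0.018 in controls, and 0.367 ± 0.012 in MHCC-97L Flag-OGT against 0.951 ± 0.022 in controls (SD, n = 2; exact permutation p = 0.33, two-sided, for each line).

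In the reference annotation of GRCh38, which is not the hg19 build of the deposited data and serves here for gene structure only, 1078 of the 2076 exonic bases of CDK4 (51.9%) lie opposite exons of TSPAN31 on the other strand. The sources used here do not say if counting used strand, so reads of CDK4 and TSPAN31 cannot be told apart over that stretch. TSPAN31 averaged 11.4 FPKM in MHCC-97H Flag-OGT against 4.77 FPKM in controls, and 10.9 FPKM in MHCC-97L Flag-OGT against 4.08 FPKM in controls, far below CDK4. CCND1 shares 497 exonic bases (11.3%) with LTO1 on the other strand, CCND2 shares 989 (15.3%) with AC008012.1 on its own strand, which strand could not resolve, and CDKN2A shares 341 (10.8%) with the antisense gene CDKN2B-AS1.

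The neighbouring INK4 genes on chromosome 9 moved apart. CDKN2A, which encodes p16INK4a and, from another promoter and reading frame, the MDM2 inhibitor p14ARF, was at 376.7 and 375.5 FPKM in MHCC-97H Flag-OGT libraries, against 99.0 and 85.0 FPKM in controls. MHCC-97L libraries held it at 434.5 and 415.2 FPKM with Flag-OGT, against 90.03 and 100.2 FPKM in controls. Every Flag-OGT library lay above every control library, by 4.09-fold on average in MHCC-97H and 4.47-fold in MHCC-97L. The log2 difference was 2.02 ± 0.08 in MHCC-97H (limma, adjusted p = 2.1e-09) and 2.15 ± 0.08 in MHCC-97L (adjusted p = 1.6e-09). CDKN2A stood at the 98.8 percentile of tested genes in MHCC-97H Flag-OGT against 93.5 in controls, and at 98.6 in MHCC-97L Flag-OGT against 93.4 in controls, and was the most abundant of the 10 genes in both Flag-OGT groups. The table holds 1 value for the gene, and the transcripts for p16INK4a (1218 bases) and p14ARF (1283 bases) share 797 bases in the reference, so the level of each product was not analysed here.

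CDKN2B, which encodes p15INK4b, was at 1.03 and 1.01 FPKM in MHCC-97H Flag-OGT libraries, against 6.17 and 6.07 FPKM in controls. The MHCC-97L values were 1.12 and 1.48 FPKM with Flag-OGT, against 6.34 and 6.36 FPKM in controls. The groups did not overlap, and the control level was 6.0-fold higher in MHCC-97H and 4.89-fold higher in MHCC-97L. The log2 difference was -1.82 ± 0.08 in MHCC-97H (limma, adjusted p = 9.0e-09) and -1.68 ± 0.08 in MHCC-97L (adjusted p = 1.9e-08). CDKN2A exceeded CDKN2B by 368.7 ± 4.3-fold in MHCC-97H Flag-OGT against 15.0 ± 1.4-fold in controls, and by 334.2 ± 76-fold in MHCC-97L Flag-OGT against 15.0 ± 1.1-fold in controls (SD, n = 2). The longest stretch identical between a CDKN2A transcript and a CDKN2B transcript was 80 bases, so reads of either gene could have been assigned to the other. How large that part was, was not tested. At these levels a small share of CDKN2A reads would weigh far more on the CDKN2B value than the reverse.

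Because these neighbours changed in opposite directions, the sequences just upstream of their starts are given, 5′ to 3′ on the minus strand that carries both genes, from RefSeq on GRCh38.p14; capitals mark the GC box GGGCGG, the core recognised by SP1-family factors, or its complement CCGCCC.
CDKN2A, upstream of the p14ARF start, chr9:21995325-21995574: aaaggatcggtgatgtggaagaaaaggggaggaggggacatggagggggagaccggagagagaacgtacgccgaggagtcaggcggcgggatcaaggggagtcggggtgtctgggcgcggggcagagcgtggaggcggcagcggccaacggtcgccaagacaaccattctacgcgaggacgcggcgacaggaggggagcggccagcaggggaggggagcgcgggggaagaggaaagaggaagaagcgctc
CDKN2A, upstream of the p16INK4a start, chr9:21974858-21975107: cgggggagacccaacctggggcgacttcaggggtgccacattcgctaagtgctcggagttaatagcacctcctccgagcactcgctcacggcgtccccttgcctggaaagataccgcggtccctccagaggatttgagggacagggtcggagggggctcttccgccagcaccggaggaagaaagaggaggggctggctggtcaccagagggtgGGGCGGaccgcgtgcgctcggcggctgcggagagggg
CDKN2B, chr9:22009306-22009555: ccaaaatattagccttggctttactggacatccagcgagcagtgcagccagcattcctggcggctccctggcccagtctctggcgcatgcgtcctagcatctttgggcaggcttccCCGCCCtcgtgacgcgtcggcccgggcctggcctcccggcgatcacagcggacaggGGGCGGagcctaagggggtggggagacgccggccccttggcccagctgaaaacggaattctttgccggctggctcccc
Both CDKN2A windows are labelled by gene only, and the product names were given by position. The p14ARF window lies just outside the gene and the p16INK4a window 20466 bases inside it. Starts differ between annotations, so part of a window may lie within a transcript. The p14ARF window held 0 GC boxes, the p16INK4a window 1 and the CDKN2B window 2, at 66.8%, 66.8% and 66.4% G plus C. Of 35116 such windows of 250 bases in the RefSeq table, 42.6% held a GC box on either strand. Windows were found for 8 of the 10 genes, but that of RB1 lies at an internal start, 172698 bases into the gene, and was set aside, so the main RB1 promoter was not searched. Of the 11 windows of the other 7 genes, 8 held a GC box; some of these also belong to internal starts. The E2F octamers TTTCCCGC, TTTCGCGC, TTTGCCGC and TTTGGCGC, searched on both strands, were in 0 of the 11 windows and in 2.79% of all windows; this says only that these letters are not in these windows.

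Other genes around the INK4 pair did not share 1 pattern. MTAP, the methylthioadenosine phosphorylase gene next to CDKN2A, averaged 8.67 FPKM in MHCC-97H Flag-OGT against 8.98 FPKM in controls (log2 difference -0.04, limma, adjusted p = 0.665) and 7.65 FPKM in MHCC-97L Flag-OGT against 6.93 FPKM in controls (0.13, adjusted p = 0.204). DMRTA1, beyond CDKN2B, was too low to be tested, at 0.01 FPKM in MHCC-97H Flag-OGT against 1.29 FPKM in controls and 0.02 FPKM in MHCC-97L Flag-OGT against 0.57 FPKM in controls. ELAVL2, the next gene with a value, averaged 1.40 and 1.21 FPKM in the MHCC-97H and MHCC-97L Flag-OGT groups and was listed at 0 in all control libraries. It thus passed the minimum level only through Flag-OGT libraries.

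Set against the kinases they inhibit, the INK4 transcripts weighed more with Flag-OGT. The ratio of CDKN2A plus CDKN2B to CDK4 plus CDK6 was 1.97 and 2.04 in MHCC-97H Flag-OGT libraries, against 0.472 and 0.418 in controls. In MHCC-97L it was 2.79 and 2.68 with Flag-OGT, against 0.657 and 0.746 in controls. The ratio was above 1 in each Flag-OGT library and below 1 in each control library, and the exact permutation p was 0.33 in each line, two-sided, again the smallest possible. CDKN2A also counts transcripts for p14ARF, which does not bind these kinases.

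CDKN1A, the p21 gene and a target of p53, differed far more between the lines than with Flag-OGT. It was at 46.1 and 45.9 FPKM in MHCC-97H Flag-OGT libraries, against 55.0 and 53.5 FPKM in controls, and fell there (-0.23 ± 0.05, limma, adjusted p = 0.00214; -0.43 under median-of-ratios scaling). MHCC-97L libraries held CDKN1A at 13.7 and 13.1 FPKM with Flag-OGT, against 13.04 and 13.2 FPKM in controls, and the groups overlapped. The difference there was 0.03 ± 0.05 with a 95% interval from -0.09 to 0.15 (adjusted p = 0.65), and -0.17 under median-of-ratios scaling (adjusted p = 0.0197).

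RB1, the substrate of the kinases, rose in both lines. It was at 5.13 and 5.01 FPKM in MHCC-97H Flag-OGT libraries, against 0.97 and 1.27 FPKM in controls, a 4.53-fold higher mean. MHCC-97L libraries held RB1 at 5.66 and 6.02 FPKM with Flag-OGT, against 0.93 and 0.70 FPKM in controls, a 7.17-fold higher mean. The groups did not overlap, and the log2 difference was 1.52 ± 0.09 in MHCC-97H (limma, adjusted p = 8.4e-08) and 1.92 ± 0.09 in MHCC-97L (adjusted p = 1.6e-08). Among its neighbours on chromosome 13, the Mediator subunit gene MED4 averaged 15.4 FPKM in MHCC-97H Flag-OGT against 4.57 FPKM in controls, and 21.0 FPKM in MHCC-97L Flag-OGT against 5.56 FPKM in controls. LPAR6, a lysophosphatidic acid receptor gene that lies within RB1, averaged 0.575 FPKM in MHCC-97H Flag-OGT against 3.04 FPKM in controls, and 0.675 FPKM in MHCC-97L Flag-OGT against 2.05 FPKM in controls.

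Neighbours of the D-type cyclins did not all go the way of their cyclin. MYEOV, before CCND1 on chromosome 11, was close to absent with Flag-OGT, at 0.045 FPKM in MHCC-97H against 51.8 FPKM in controls and 0.18 FPKM in MHCC-97L against 50.9 FPKM in controls. TPCN2, one gene further, was called in neither line (limma, adjusted p = 0.0874 in MHCC-97H and 0.938 in MHCC-97L). Next to CCND2 on chromosome 12, PARP11 was called in neither line (adjusted p = 0.391 and 0.336). The next gene, CRACR2A, rose, to 1.57 FPKM in MHCC-97H Flag-OGT against 0.09 FPKM in controls and 0.61 FPKM in MHCC-97L Flag-OGT against 0.02 FPKM in controls. Beside CCND3 on chromosome 6, BYSL differed by 0.08 in MHCC-97H (adjusted p = 0.326) and 1.12 in MHCC-97L (adjusted p = 1.5e-07) on the log2 scale, while C6orf132 fell by 2.72 and 1.99. CRACR2A passed the minimum level only through Flag-OGT libraries, and MYEOV and C6orf132 only through controls, so each had to differ.

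**Figure D3:**
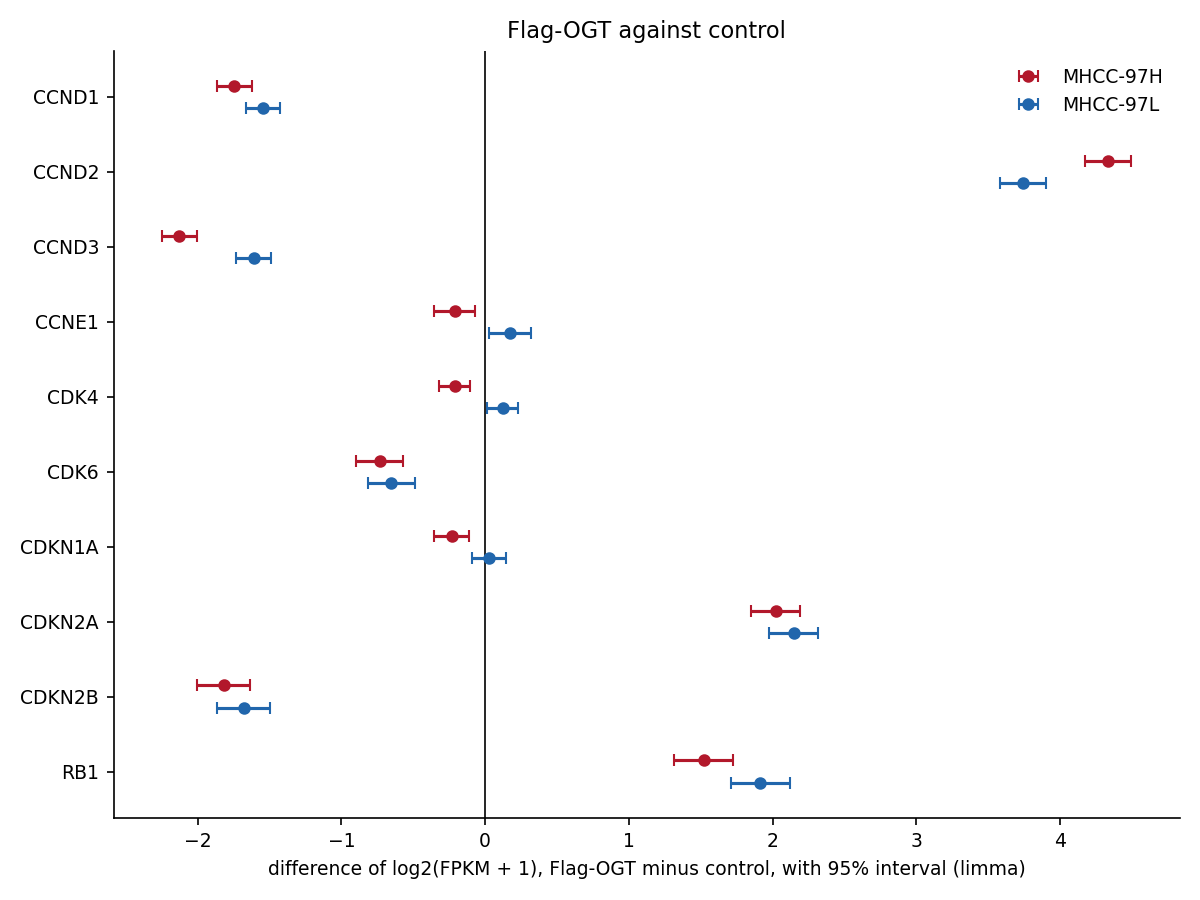
Difference of log2(FPKM + 1), Flag-OGT minus control (x axis), of each gene in MHCC-97H and MHCC-97L, with 95% limma intervals. CCND2, CDKN2A and RB1 lie right of 0 and CCND1, CCND3, CDK6 and CDKN2B left of it in both lines, whereas CCNE1, CDK4 and CDKN1A lie close to 0.

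The size of the Flag-OGT change was compared between the lines in the same model. It differed for 7 of the 10 genes, 1 with a positive and 6 with a negative difference of MHCC-97H minus MHCC-97L, where 63.3% of all tested genes were called, 33.9% positive and 29.4% negative. CCND2, 1 of the 7, differed by 0.59 ± 0.10 on the log2(FPKM + 1) scale (limma, adjusted p = 6.7e-04). It was at most 0.03 FPKM in controls and passed the minimum level only through Flag-OGT libraries. Its value therefore nearly restates the difference between the Flag-OGT groups of the lines (0.58), and is no separate support for a larger gain. The loss of CCND3 was larger in MHCC-97H (-0.52 ± 0.08, adjusted p = 2.6e-04). CCNE1 (-0.39 ± 0.09, adjusted p = 0.00445) and CDK4 (-0.33 ± 0.07, adjusted p = 0.00165) had changes of opposite sign in the lines, except under median-of-ratios scaling, where both were negative in each line, and CDKN1A differed by -0.26 ± 0.08 (adjusted p = 0.013). The gain of RB1 was smaller in MHCC-97H (-0.40 ± 0.13, adjusted p = 0.023), and the loss of CCND1 larger (-0.20 ± 0.08, adjusted p = 0.0442), but these calls rested on single libraries. RB1 was not called without MHCC-97H Flag-OGT replicate 1 (adjusted p = 0.0528) or 2 (0.0677), MHCC-97H control replicate 2 (0.078), MHCC-97L Flag-OGT replicate 2 (0.0727) or MHCC-97L control replicate 2 (0.091), nor after common-sum rescaling (0.0755) or with no filter (0.0501). CCND1 was not called without MHCC-97H Flag-OGT replicate 1 (0.108) or 2 (0.119), MHCC-97H control replicate 1 (0.0901), MHCC-97L Flag-OGT replicate 1 (0.0976), or MHCC-97L control replicate 1 (0.0927) or 2 (0.119), nor under common-sum (0.122) or median-of-ratios scaling (0.0587). With MHCC-97H Flag-OGT replicate 2 left out, 4 of the 7 calls remained, those of CCND2, CCND3, CCNE1 and CDK4, and CDKN1A had an adjusted p of 0.0522. For CDK6 the difference was -0.08 (95% interval -0.31 to 0.15), for CDKN2A -0.13 (-0.37 to 0.12) and for CDKN2B -0.14 (-0.40 to 0.12), none of them called. The CDKN2A difference was called without MHCC-97H control replicate 2 (-0.23, adjusted p = 0.0422).

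Between the lines, CDKN1A differed most. It was 4.13-fold higher in MHCC-97H than in MHCC-97L controls, a log2 difference of 1.97 ± 0.05 (limma, adjusted p = 4.8e-09), and 3.44-fold higher when both carried Flag-OGT, a log2 difference of 1.71 ± 0.05 (adjusted p = 2.3e-08). It was the 1 member of the 10 past 2-fold, against 7.64% of tested genes in controls and 7.83% with Flag-OGT. The 2-fold limits in this paragraph are on the log2(FPKM + 1) scale. There CDK6 with Flag-OGT stayed under the limit at 0.64, at a 2.0-fold higher mean FPKM. For CDKN1A, every MHCC-97H library lay above every MHCC-97L library. Of all tested genes 297 (2.19%) were called and at least 2-fold higher in MHCC-97H controls and 575 (4.24%) in MHCC-97H with Flag-OGT, and 44 were in both lists, 14.8% of the first list and 7.65% of the second. Of the 44, 9 changed by under 0.5 on the log2 scale with Flag-OGT in each line, CDKN1A and E2F7 among them with KIAA1671, LYPLA1, LIPA, GALNT2, VAPB, MARVELD1 and FNTB. This last list was drawn up after the values were seen.

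In control libraries 6 of the 10 genes were called, all higher in MHCC-97H, where 65.4% of tested genes were called, 26.5% higher and 38.9% lower; libraries of the lines did not overlap for 8 of the 10, against 81.4% of tested genes. Over all called genes 3589 were higher and 5270 lower in MHCC-97H, and after common-sum rescaling 4674 and 4230, after median-of-ratios scaling 4937 and 4106 and after quantile normalization 4547 and 3963. Besides CDKN1A the called genes were CDK6 (0.72), CDK4 (0.60), CCND3 (0.51), CCNE1 (0.47) and CCND1 (0.39), given as log2 differences. CDKN2A (-0.05, 95% interval -0.22 to 0.12) and CDKN2B (-0.05, -0.23 to 0.14) were not called, and RB1 (0.22, adjusted p = 0.055) was called in 9 of the alternative fits, among them those without MHCC-97H control replicate 1 (0.33, adjusted p = 0.0195) and without MHCC-97L control replicate 1 (0.31, adjusted p = 0.0329). CCND2 was at or near 0 in both.

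With Flag-OGT in both lines 5 of the 10 genes were called, again all higher in MHCC-97H, where 69.7% of tested genes were called, 33.6% higher and 36.1% lower; libraries of the lines did not overlap for 9 of the 10, against 84.5% of tested genes. Over all called genes 4551 were higher and 4894 lower, and after common-sum rescaling 5932 and 3547 and after median-of-ratios scaling 5679 and 3760. The log2 difference was 0.64 for CDK6, a 2.0-fold higher mean, 0.58 for CCND2, 0.26 for CDK4 and 0.19 for CCND1, the last not called without MHCC-97H Flag-OGT replicate 1 (adjusted p = 0.0591) or 2 (0.0514). CCND3 no longer separated the lines, at -0.01 (95% interval -0.13 to 0.11), although common-sum rescaling gave 0.18 (adjusted p = 0.0136) and median-of-ratios scaling 0.15 (adjusted p = 0.0346). CCNE1 differed by 0.09 (95% interval -0.06 to 0.23), and by 0.27 after common-sum rescaling (adjusted p = 0.00452) and 0.24 after median-of-ratios scaling (adjusted p = 0.00522). CDKN2A was at -0.18 (adjusted p = 0.0635), and at 0.17 after quantile normalization (adjusted p = 0.0473). CDKN2B was at -0.18 (adjusted p = 0.0724), and at -0.30 without MHCC-97L Flag-OGT replicate 1 (adjusted p = 0.00913). RB1 was at -0.17 (adjusted p = 0.121), and at -0.25 after quantile normalization (adjusted p = 0.0247).

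**Figure D4:**
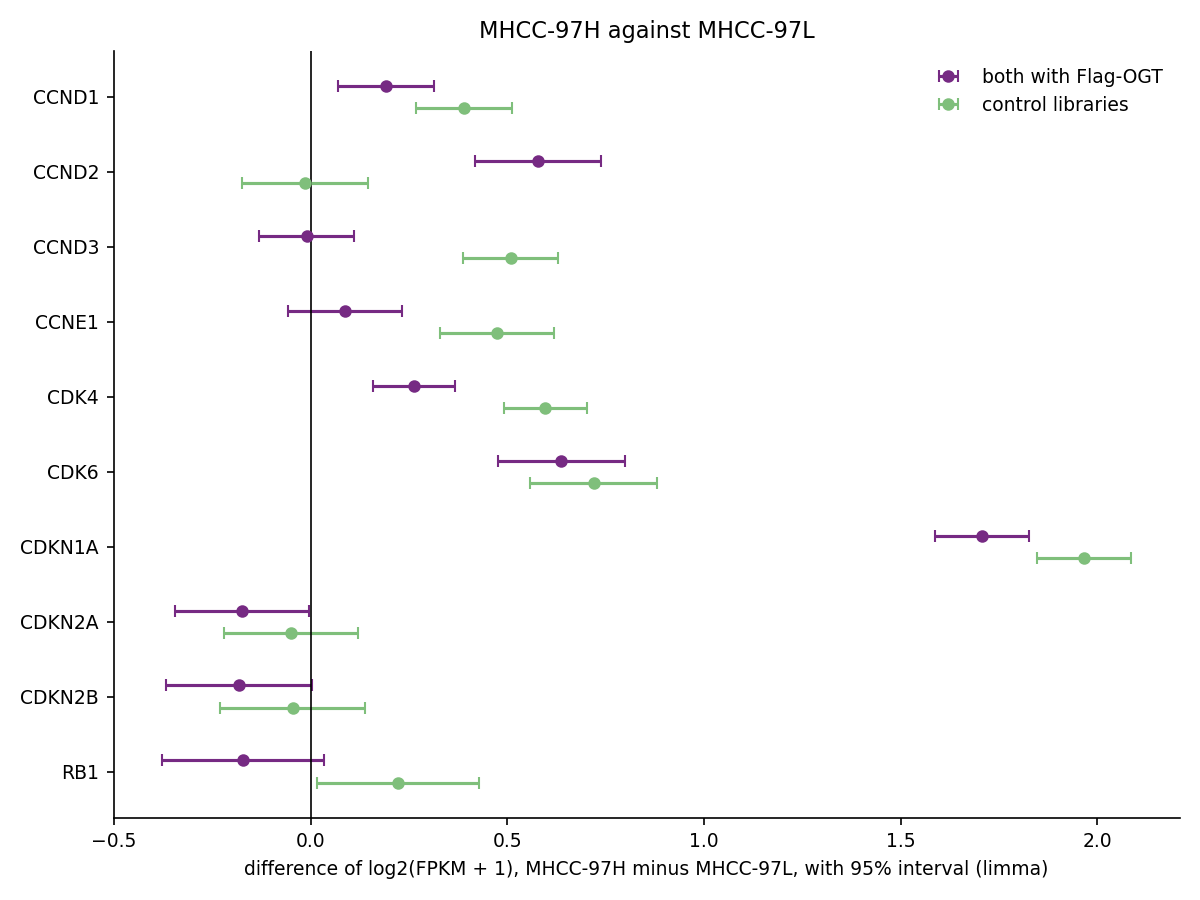
Difference of log2(FPKM + 1), MHCC-97H minus MHCC-97L (x axis), of each gene with Flag-OGT in both lines and in the controls, with 95% limma intervals. CDKN1A stands apart at 1.71 and 1.97, and CCND3 is at -0.01 with Flag-OGT and 0.51 in controls.

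The full order in MHCC-97H Flag-OGT, high to low, was CDKN2A, CDK4, CDKN1A, CCND3, CCND2, CCND1, CCNE1, RB1, CDK6 and CDKN2B, against CDK4, CCND3, CDKN2A, CCND1, CDKN1A, CCNE1, CDKN2B, CDK6, RB1 and CCND2 in MHCC-97H controls. In MHCC-97L Flag-OGT it was CDKN2A, CDK4, CCND3, CCND1, CCNE1, CDKN1A, CCND2, RB1, CDKN2B and CDK6, against CDK4, CDKN2A, CCND3, CCND1, CDKN1A, CCNE1, CDKN2B, CDK6, RB1 and CCND2 in MHCC-97L controls. By level, the order of the 10 genes was headed by CDKN2A in both Flag-OGT groups, followed by CDK4, and by CDK4 in both control groups. Second place in controls went to CCND3 in MHCC-97H (124.6 FPKM, followed by CDKN2A at 92.03) and to CDKN2A in MHCC-97L (95.1 FPKM, followed by CCND3 at 87.3). The CDKN2A libraries there, 90.03 and 100.2 FPKM, had a lowest value not far above the highest of CCND3, 87.9 FPKM. In MHCC-97H Flag-OGT, CCND1 and CCND2 were neighbours in the order at 19.1 and 19.4 FPKM, closer than the spread of CCND2 (SD 0.53, n = 2). CCNE1, CDKN1A and CCND2 were close in MHCC-97L Flag-OGT, at 14.2, 13.4 and 12.7 FPKM, and the libraries of CDKN1A and CCND2 overlapped. At the low end, CDK6 and CDKN2B were at 1.25 and 1.30 FPKM there, with overlapping libraries.

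Other genes of the same machinery were called with Flag-OGT in both directions, at shares to be read beside the 84.6% of all tested genes called in MHCC-97H (48.2% higher, 36.3% lower) and the 84.8% in MHCC-97L (50.1% higher, 34.7% lower). Of 4 other kinase inhibitors 1 rose and 2 fell in each line. CDKN2C, a further INK4 gene, rose to 45.2 FPKM in MHCC-97H Flag-OGT against 16.1 FPKM in controls and to 50.6 FPKM in MHCC-97L Flag-OGT against 12.7 FPKM in controls. The KIP genes CDKN1B and CDKN1C fell, by 0.29 and 0.40 in MHCC-97H and by 0.42 and 0.96 in MHCC-97L on the log2 scale. The median of the list was -0.12 in MHCC-97H and -0.14 in MHCC-97L, beside 0.15 and 0.19 over all tested genes. Under median-of-ratios scaling, with all-gene medians of 0.00 and 0.02, it was -0.30 and -0.32.

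Of 12 tested cyclins, kinases and CDC25 phosphatases, which remove inhibitory phosphates from cyclin-dependent kinases, in MHCC-97H 7 rose and 5 fell (median 0.37), while in MHCC-97L 8 rose and 2 fell (median 0.72). Under median-of-ratios scaling the medians were 0.17 and 0.52. CCNA1 was too low to be tested. CDC25A rose to 53.0 FPKM in MHCC-97H Flag-OGT against 8.07 FPKM in controls and to 48.1 FPKM in MHCC-97L Flag-OGT against 4.87 FPKM in controls. CDC25B fell to 38.7 FPKM in MHCC-97H Flag-OGT against 126.7 FPKM in controls and to 33.5 FPKM in MHCC-97L Flag-OGT against 158.6 FPKM in controls. CDK2, the partner of cyclin E, rose to 67.8 FPKM in MHCC-97H Flag-OGT against 32.1 FPKM in controls and to 40.1 FPKM in MHCC-97L Flag-OGT against 17.9 FPKM in controls.

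Of 12 pocket protein, E2F and DP genes 8 rose and 1 fell in each line (medians 0.34 and 0.52); under median-of-ratios scaling the numbers higher and lower were 6 and 2 in MHCC-97H and 8 and 2 in MHCC-97L, with medians of 0.15 and 0.33. TFDP2, a dimer partner of E2F, averaged 16.6 FPKM in MHCC-97H Flag-OGT against 3.50 FPKM in controls and 17.9 FPKM in MHCC-97L Flag-OGT against 5.25 FPKM in controls. RBL1, which encodes the RB1 relative p107, fell, by 1.10 in MHCC-97H and 0.27 in MHCC-97L on the log2 scale, opposite to RB1.

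Of 13 genes for the turnover of G1 cyclins and their inhibitors in MHCC-97H 9 rose and 4 fell, while in MHCC-97L 8 rose and 4 fell (medians 0.34 and 0.32); under median-of-ratios scaling 6 rose in each line, with 4 and 5 lower and medians of 0.19 and 0.12. SKP2, the ubiquitin ligase subunit that targets p27, rose to 45.0 FPKM in MHCC-97H Flag-OGT against 7.35 FPKM in controls and to 34.1 FPKM in MHCC-97L Flag-OGT against 7.53 FPKM in controls. FBXO4, an F-box gene linked to cyclin D1 turnover, fell to 1.22 FPKM in MHCC-97H Flag-OGT against 4.27 FPKM in controls and to 0.865 FPKM in MHCC-97L Flag-OGT against 6.71 FPKM in controls.

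Of 20 E2F target and proliferation genes in MHCC-97H 12 rose and 5 fell (median 0.47), while in MHCC-97L 12 rose and 3 fell (median 0.22). Under median-of-ratios scaling the numbers higher and lower were 11 and 8 in MHCC-97H and 9 and 6 in MHCC-97L, with medians of 0.28 and 0.04. CDT1, a replication licensing factor, rose to 229.6 FPKM in MHCC-97H Flag-OGT against 52.1 FPKM in controls and to 129.4 FPKM in MHCC-97L Flag-OGT against 28.8 FPKM in controls. TK1 and FOXM1 fell, by 0.64 and 0.72 in MHCC-97H and by 0.84 and 0.80 in MHCC-97L on the log2 scale. CCNE2 and E2F1 sit in 2 of these lists each.

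**Figure D5:**
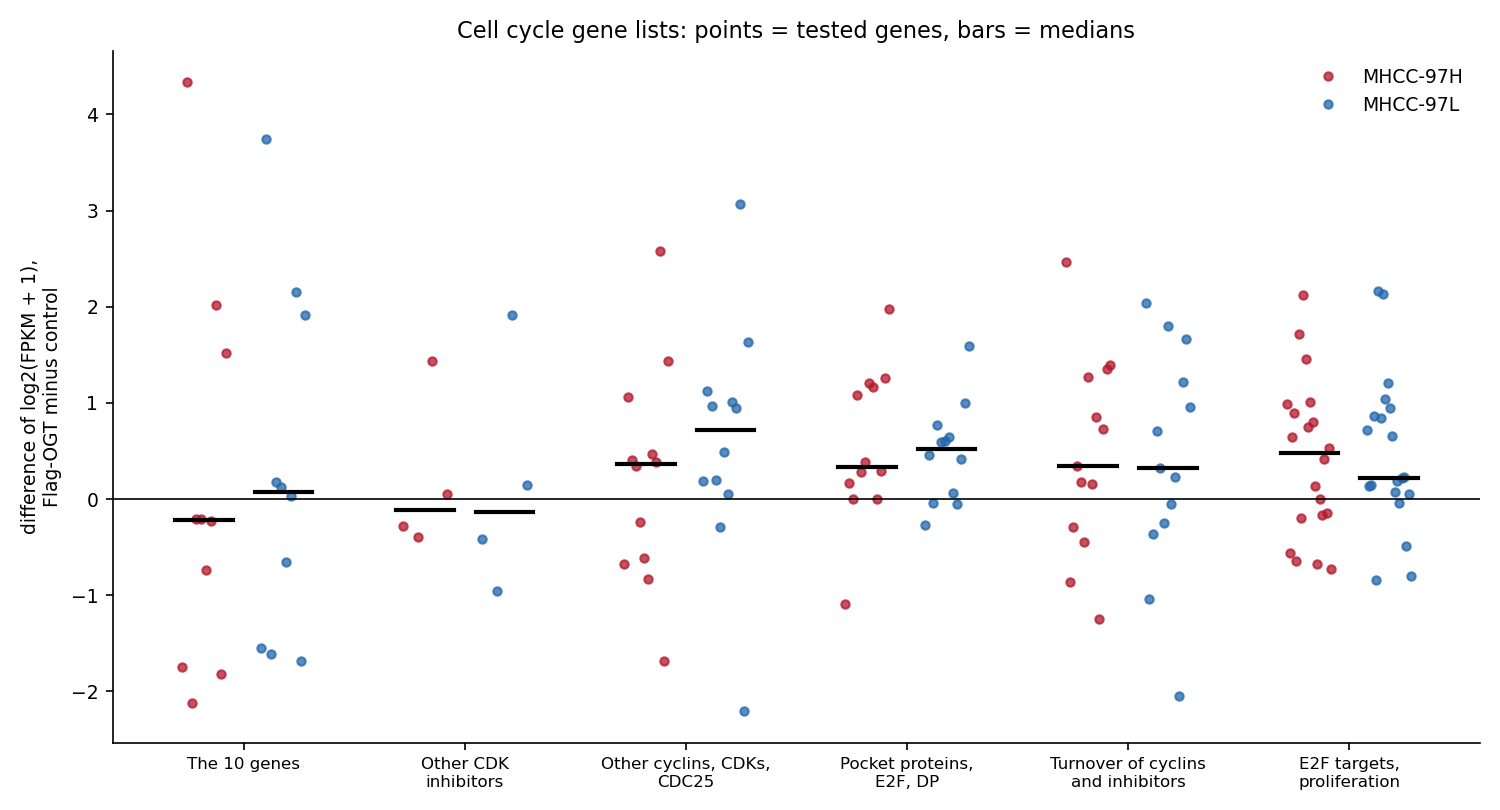
Difference of log2(FPKM + 1), Flag-OGT minus control (y axis), for the tested genes of 6 lists (x axis) in MHCC-97H and MHCC-97L; points are genes and bars are medians. Genes of each list lie on both sides of 0, with medians from -0.22 to 0.72.

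A further list held genes that senescent cells are known to secrete, with LMNB1, a nuclear lamina gene known to be lost in senescence. Of its 8 tested genes 2 rose and 6 fell in each line (medians -1.16 and -1.47), and IL6, IL1A and MMP3 were too low to be tested. LMNB1 rose to 57.7 FPKM in MHCC-97H Flag-OGT against 25.8 FPKM in controls and to 52.5 FPKM in MHCC-97L Flag-OGT against 20.8 FPKM in controls. In the same libraries CDKN2A was high, as given above.

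For each of the 10 genes, the tested genes with the most similar centred log2(FPKM + 1) profile over the 8 libraries were listed by Euclidean distance, where 0 is an identical profile. CCND1 was closest to PKM, the pyruvate kinase M gene, at 0.154, CCND2 to the growth factor receptor gene FGFR1 at 0.183, and CCND3 to TPM3, a tropomyosin gene, at 0.175. CDKN2A was closest to the ribosomal protein gene RPL13 at 0.133, CDKN2B to TSPAN1 at 0.194, and RB1 to XRCC6, the Ku70 gene, at 0.169. CDK6 had RAB14 at 0.084, CDK4 had PHC2 at 0.134 and CCNE1 had GRSF1 at 0.129. CDKN1A had no gene nearer than KLHL4 at 0.577, followed by BMI1, a Polycomb gene, at 0.657, the largest distance to a nearest gene among the 10. The profiles share libraries and their main split between Flag-OGT and control, so a small distance says little about a gene pair.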

How the data were processed

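RNA-seq of 8 libraries from 2 cell lines was used, with 2 libraries in each of 4 groups. The authors deposited a gene-level FPKM table, with values to 2 decimals. Per the submitters' processing notes, the tools named were RSEM 1.2.4, DESeq2 1.18.1, HISAT2 2.1.0 and Bowtie2, and the build hg19; the sources used here do not say which of them made the FPKM. Of 18928 features, 26 with date-like symbols (at most 0.100% of a library's FPKM) were left out. The read depth is unknown, so no counting interval is given.

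For the 13553 genes averaging 0.5 FPKM or more, limma 3.58.1 under R 4.3.3 fitted log2(FPKM + 1) by group (4 means, 4 residual degrees of freedom, empirical Bayes with trend). In each of 5 comparisons the Benjamini-Hochberg adjustment ran over every tested gene, and adjusted p under 0.05 was called. The fit was tested on simulated data in which far fewer genes changed, in 1 group only, than were called here. That test therefore cannot show how the fit behaves on data like these. Sums, shares and ratios of FPKM used an exact permutation test, and the rest ran in Python 3.11.15 (matplotlib 3.10.9, scipy 1.17.1, numpy 2.4.6, pandas 2.3.3).

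All 10 genes are named. Of each further list, up to 3 called genes at either end of the Flag-OGT change could be named, with untested ones, the 2 nearest genes on each side and the 3 most similar profiles. Some genes that meet this rule are not reported here. The genes and lists were chosen with earlier results of these data known. The chromatin immunoprecipitation data were not analysed here. Alternatives covered the pseudocount (0.1), the filter (none, or a mean of 2 FPKM), scaling (common-sum, median-of-ratios, quantile), the trend, fitting only the groups compared, a replicate block, a 2-fold minimum and leaving out each library. A block with the MHCC-97L numbers crossed was added after seeing the data.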

Additional observations from a re-analysis of the deposited data

Results flagged for a closer look

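For 7 of the 10 genes the Flag-OGT change differed between the lines by the test of the difference itself, MHCC-97H minus MHCC-97L on the log2(FPKM + 1) scale. The difference was 0.59 for CCND2, -0.52 for CCND3, -0.40 for RB1, -0.39 for CCNE1, -0.33 for CDK4, -0.26 for CDKN1A and -0.20 for CCND1 (limma, with adjusted p of 6.7e-04, 2.6e-04, 0.023, 0.00445, 0.00165, 0.013 and 0.0442 in that order). Over all tested genes 63.3% were called in this comparison. CCND2, counted here, was near 0 in all controls, so its difference nearly restates that between the Flag-OGT groups of the lines. None of the 7 reached 2-fold. RB1 was not called in 5 of the 8 fits that left out 1 library, nor by common sum (adjusted p = 0.0755). CCND1 was not called in 6 of these 8 fits, nor by common sum (0.122), by median of ratios (0.0587) or with the replicate block (0.0528). Of the 7, 4 kept the call in every fit that left out 1 library.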

How the results depend on the processing

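Over the 10 genes, 5 comparisons and the alternatives, 673 of the values kept their direction and side of the threshold, 56 lost the call, 15 gained one and 6 turned in direction. Part of the 56 comes from the 2-fold minimum, which is a stricter cutoff on the log2(FPKM + 1) differences of the main fit and not a refit. In MHCC-97L, median-of-ratios scaling gave -0.021 for CCNE1, -0.088 for CDK4 and -0.17 for CDKN1A. Between the lines with Flag-OGT, CCND3 gave 0.18 by common sum and 0.15 by median of ratios, and CDKN2A 0.17 by quantiles; the cause was not tested. With a 2-fold minimum, genes called numbered 5183 in MHCC-97H, 4703 in MHCC-97L, 1679 for the difference of changes, 1036 between control lines and 1061 between Flag-OGT lines; of the 10 genes, 6, 6, 0, 1 and 1 remained. Leaving out 1 library at a time left 4 to 7 of the 10 genes called for the difference of changes. The ratio of CDKN2A plus CDKN2B to CDK4 plus CDK6 in MHCC-97H Flag-OGT became 2.19 after quantile normalization, against 2.00.

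Same-numbered libraries were not paired: correlations of their deviations ran from -0.206 to 0.309. With a replicate block, 10 of the 10 genes were called in MHCC-97H, 9 in MHCC-97L, 6 for the difference of changes (CCND1 lost, adjusted p = 0.0528), 6 between control lines and 5 between Flag-OGT lines. With the MHCC-97L numbers crossed, 9 of the 10 genes and 11630 genes in all were called in MHCC-97L, and 7 and 9147 between control lines.

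Unknown read depth, 2 libraries per group and values listed at 0.01 limit what can be said of CCND2, CDKN2B and RB1 at low levels.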
